A study of Mus musculus with 24 samples.

Results

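The genes described here were 9 genes known as markers of disease-associated microglia: Trem2, Tyrobp, Clec7a, Lilrb4a, Itgax, Lgals3, Cst7, Cd68 and Gpnmb. They were taken by name from a table of 55416 gene rows, and 8 of the 9 passed the filter on low counts and were tested among 17736 genes. Cst7 did not pass that filter.

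Poly(A) RNA was sequenced from the cerebellum of 24 neonatal C57BL/6J mice, with 12 animals in the Ethanol group and 12 in the vehicle (Control) group. The ethanol dose was 4 g/kg/day, given by gavage into the stomach in intralipid (20%), a fat emulsion, and Control animals received the emulsion with water instead. All 24 pups were therefore handled, gavaged and given lipid, and no untreated group was compared. Dosing began at P4 (postnatal day 4), and tissue was taken a day after the last dose (24 hours), at P5 or P6, from perfused animals; the labels do not give the age, sex or litter of each animal, so both ages were pooled. The labels call the tissue brain, and the series text and the study's methods call it cerebellum; markers of cerebellar neurons summed to 2843 CPM or more in every library.

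Disease-associated microglia are a state of the brain's resident macrophages that was described around plaques, dying neurons and damaged myelin, and a similar state is seen in early postnatal white matter, the cerebellum included. Trem2 on the cell surface binds lipids and apolipoproteins and signals through its adaptor Tyrobp, which recruits the kinase Syk. Signalling through this pair accompanies a fall in resting-state genes and a rise in genes for lipid handling, lysosomal breakdown and phagocytosis.

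Of the 8 tested genes, 6 were higher in Ethanol and none was lower. These were Lilrb4a, Gpnmb, Lgals3, Cd68, Tyrobp and Trem2, with log2 fold changes from 1.33 for Lilrb4a down to 0.29 for Trem2. Over all genes tested, 9.07% were higher in Ethanol and 5.8% were lower by the same rule, an adjusted p under 0.05 in edgeR's quasi-likelihood test. The genes described were chosen with earlier results of these data known, so these shares are given as background only. None of the 8 was lower at an unadjusted p under 0.05, by DESeq2 or by limma-voom. DESeq2 called 7 of them higher and limma-voom 5. The median log2 fold change of the 8 genes was 0.47, and that of all genes tested was -0.0057. Because the RNA came from whole cerebellum, more cells of a type and more RNA per cell cannot be told apart, nor can the cells that held these transcripts be seen.

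The promoters of the members are shown because most of them share a short sequence. Entries of 300 bases around a start site were found in RefSeq for 7 of the 9 genes, on build GRCm38.p6, whereas the reads were mapped to GRCm39. The letters TGANTCA, where N is any base, stood in the promoters of 5 of these 7 genes. Over all genes they stood in the promoters of 8.97% of 27025 genes (7.81% of 32851 promoters). As a pattern they read alike on both strands. The usual core bound by AP-1 factors such as Fos and Jun has C or G at N. Itgax and Cd68 (TGAGTCA) and Gpnmb (TGACTCA) hold that core, whereas Trem2 (TGAATCA) and Cst7 (TGATTCA) have A or T there. The share of all genes with C or G at N was not counted. The set of letters was chosen after the sequences had been seen. Below, capitals mark these letters in the promoters of Trem2 (chr17:48346151-48346450, plus strand), Cd68 (chr11:69666121-69666420, minus strand) and Gpnmb (chr6:49036268-49036567, plus strand), which were higher in Ethanol, and of Itgax (chr7:128129300-128129599, plus strand), which did not pass the test. Lgals3 (chr14:47373610-47373909, plus strand) is shown as a gene that was higher in Ethanol and has no such letters in this window.
Trem2: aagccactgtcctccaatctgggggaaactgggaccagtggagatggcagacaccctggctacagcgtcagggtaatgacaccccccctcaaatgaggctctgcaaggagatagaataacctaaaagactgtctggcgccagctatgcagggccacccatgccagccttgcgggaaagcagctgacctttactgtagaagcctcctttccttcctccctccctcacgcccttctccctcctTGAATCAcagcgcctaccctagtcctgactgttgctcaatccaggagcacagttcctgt
Itgax: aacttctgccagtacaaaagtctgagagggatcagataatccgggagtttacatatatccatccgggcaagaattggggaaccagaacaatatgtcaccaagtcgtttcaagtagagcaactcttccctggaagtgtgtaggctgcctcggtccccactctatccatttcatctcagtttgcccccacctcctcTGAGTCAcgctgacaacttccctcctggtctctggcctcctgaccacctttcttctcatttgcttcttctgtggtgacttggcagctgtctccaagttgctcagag
Lgals3: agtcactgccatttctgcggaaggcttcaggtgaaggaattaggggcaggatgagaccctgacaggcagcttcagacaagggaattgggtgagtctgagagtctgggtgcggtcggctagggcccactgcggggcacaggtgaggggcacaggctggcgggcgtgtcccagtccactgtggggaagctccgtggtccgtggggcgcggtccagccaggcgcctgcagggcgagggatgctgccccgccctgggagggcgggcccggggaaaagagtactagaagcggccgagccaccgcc
Cd68: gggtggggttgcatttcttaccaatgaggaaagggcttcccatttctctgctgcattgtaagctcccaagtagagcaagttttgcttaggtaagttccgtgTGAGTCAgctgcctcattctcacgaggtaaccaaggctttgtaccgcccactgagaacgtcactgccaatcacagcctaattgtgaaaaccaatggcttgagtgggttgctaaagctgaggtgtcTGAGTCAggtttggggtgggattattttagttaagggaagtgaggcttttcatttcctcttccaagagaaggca
Gpnmb: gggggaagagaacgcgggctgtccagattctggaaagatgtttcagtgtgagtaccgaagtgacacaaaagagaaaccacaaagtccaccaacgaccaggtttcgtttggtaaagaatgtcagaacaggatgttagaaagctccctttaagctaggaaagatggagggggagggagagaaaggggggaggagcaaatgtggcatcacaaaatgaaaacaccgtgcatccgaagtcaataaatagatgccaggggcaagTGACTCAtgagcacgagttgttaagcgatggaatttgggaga

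The first letter of the match lay 9 bases before the start site in Trem2 (position -9), at -56 in Itgax, at -149 and -24 in Cd68, and 8 bases after the start site (position 8) in Gpnmb. Cst7 also held a match, at -6, and Clec7a held none. AGGAAGT, a core bound by the myeloid factor PU.1, was found on either strand in 1 of the 7 (Cst7), in 10.7% of all genes and in 9.35% of all promoters. CACGTG or CATGTG, bound by the MiT/TFE factors that drive lysosomal genes, was found in 0 of the 7, in 22.7% of all genes and in 20.4% of all promoters. A match describes the letters in the window only.

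Before the values of single genes, some properties of the libraries are needed. Estimated counts summed to 29039888 to 38696615 per Control library and 26982564 to 38804942 per Ethanol library, so depth overlapped between groups. All levels are given as CPM (counts scaled to a fixed library total) after scaling by TMM; they are not divided by transcript length, and levels of different genes are not compared. Ttr, the transthyretin gene of the choroid plexus, was at 1.15 to 3.57 CPM in 4 libraries, of the Ethanol animals X4568 and X4766 and the Control animals X4761 and X4770. The animal numbers fall into 6 blocks of 4, each with 2 Ethanol and 2 Control animals, and the labels do not say what a block shares. The study's methods describe 6 litters that each gave 2 animals per treatment, the same make-up as a block. No source used here ties a number to a litter, so the test that leads each result has no block term. The value with a block term is given where it changes the call of a tested member. In block 5 (Ethanol X4758 and X4760, Control X4761 and X4762) several of the genes behaved unlike the rest, so values without that block and without the 4 low-Ttr libraries are given with the results.

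**Figure D1:**
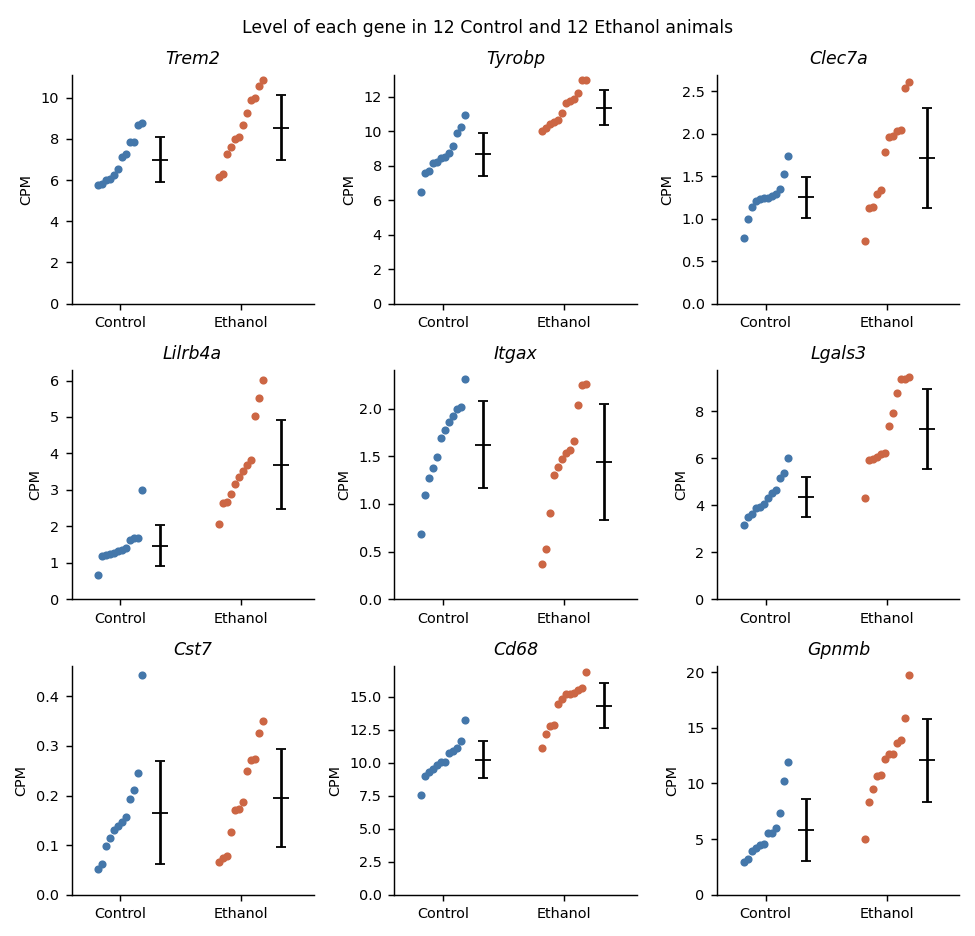
Level of each of the 9 genes in CPM (vertical axes, starting at 0); each point is 1 animal, ordered by level within its group, and the bar to the right is the mean with 1 SD (n = 12 per group). The groups are furthest apart for Lilrb4a, Cd68, Lgals3 and Tyrobp, and Itgax and Cst7 overlap over most of their range.

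The receptor and its adaptor were both higher in Ethanol, but by different margins. Tyrobp, the transmembrane adaptor with an activation motif through which Trem2 and several other myeloid receptors signal, ranged from 6.49 to 10.9 CPM in Control (median 8.46) and from 10.03 to 12.95 CPM in Ethanol (median 11.4). All 12 Ethanol animals lay above the Control median, and 10 of 12 Control animals lay below the lowest Ethanol animal. Its log2 fold change was 0.39 (SE 0.068, 95% interval 0.25 to 0.53, adjusted p = 0.000305). Trem2 itself ranged from 5.74 to 8.76 CPM in Control (median 6.83) and from 6.12 to 10.9 CPM in Ethanol (median 8.37). Here the groups overlapped more, with 10 of 12 Ethanol animals over the median of Control and 4 of 12 Control animals below the lowest Ethanol animal. The log2 fold change of Trem2 was 0.29 (SE 0.095, 95% interval 0.091 to 0.49), with an adjusted p of 0.0398.

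The Trem2 call was close to the threshold. It was kept in 10 of 24 fits that left out 1 animal and lost in the other 14. Leaving out Ethanol X4758 gave the highest adjusted p of these fits, 0.0767, with a log2 fold change of 0.25. The call was also lost without Ethanol X4568 (0.0503), X4692 (0.0656), X4694 (0.0678), X4760 (0.0737), X4765 (0.0505) or X4766 (0.0669), and without Control X4571 (0.0669), X4677 (0.0707), X4679 (0.0671), X4685 (0.0704), X4686 (0.0717), X4695 (0.0606) or X4697 (0.0535), where each value is an adjusted p. With the blocks of animal numbers as a term in the fit, the adjusted p of Trem2 was 0.00119. Trem2 was higher in Ethanol in all 6 blocks, by ratios of mean CPM from 1.07 to 1.40, and Tyrobp in all 6 by 1.12 to 1.52.

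Of the other surface receptors, Lilrb4a changed most. Lilrb4a, an inhibitory receptor of the leukocyte immunoglobulin-like family, ranged from 0.652 to 2.99 CPM in Control (median 1.34) and from 2.07 to 6.02 CPM in Ethanol (median 3.43). All but 1 Control animal (X4761) lay below the lowest Ethanol animal. The log2 fold change was 1.33, that is 2.52-fold (SE 0.19, 95% interval 0.95 to 1.72, adjusted p = 4.7e-05). Lilrb4a has a near copy next to it, named Lilr4b in the table, and 39.8% of the 75-base stretches of Lilrb4a transcripts also occur in that gene or in the overlapping model Gm49339. Reads from those stretches can be assigned to either gene, so the level of each alone is uncertain. Lilr4b had a log2 fold change of 1.30 (adjusted p = 0.000102). Summed, the 2 genes ranged from 1.21 to 3.38 CPM in Control (median 1.73) and from 2.56 to 7.44 CPM in Ethanol (median 4.39). Their summed log2 fold change was 1.33 (adjusted p = 1.98e-05), so the call was the same when reads were not divided between these 2 genes. Any reads assigned to Gm49339 were not part of this sum.

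Clec7a (dectin-1), a lectin receptor for fungal glucans that signals through Syk, ranged from 0.772 to 1.74 CPM in Control (median 1.24) and from 0.734 to 2.60 CPM in Ethanol (median 1.87). The Ethanol animals were more widely spread, with a coefficient of variation of 34.2% against 19.2%, and included both the lowest animal (X4760) and 7 animals above the highest Control. With a log2 fold change of 0.46 (SE 0.16, 95% interval 0.12 to 0.80, unadjusted p = 0.00843) it missed the threshold at an adjusted p of 0.0539. With the blocks of animal numbers as a term Clec7a passed (log2 fold change 0.42, adjusted p = 0.0399), which made 7 of the 8 tested genes past the threshold in that fit. DESeq2 gave an adjusted p of 0.04, and the threshold was passed in 12 of 40 alternative fits, among them those without Ethanol X4568 (0.0408), X4569 (0.0382), X4681 (0.0493), X4758 (0.0489) or X4760 (0.015) and without Control X4761 (0.0361).

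Itgax, the integrin alpha subunit CD11c, did not pass the test in any of 40 alternative fits. It ranged from 0.689 to 2.31 CPM in Control (median 1.74) and from 0.367 to 2.26 CPM in Ethanol (median 1.499). The groups overlapped throughout, and both Ethanol animals of block 5 (X4758 at 0.530 and X4760 at 0.367 CPM) were the lowest of all 24, followed by Control X4762 of the same block. The log2 fold change was -0.16 (SE 0.22, adjusted p = 0.675) with a 95% interval of -0.61 to 0.29. On GRCm38 transcripts, 5.01% of the 75-base stretches of Itgax were shared with Itgad, and none of those of the other 7 genes apart from Lilrb4a was shared with another gene.

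The secreted members differed in how well they could be measured. Lgals3 encodes galectin-3, a lectin that binds galactosides on glycoproteins and damaged lysosomes. Its level ranged from 3.14 to 6.02 CPM in Control (median 4.19) and from 4.31 to 9.43 CPM in Ethanol (median 6.79). Of the 12 Ethanol animals 9 lay above the highest Control animal, and X4758 was the only Ethanol animal below 5 CPM. The log2 fold change was 0.74, or 1.67-fold (SE 0.12, 95% interval 0.49 to 0.99, adjusted p = 0.000177). Cst7 encodes cystatin F, an inhibitor of cathepsin C and related cysteine proteases, and had 2 to 15 counts per Control library and 2 to 10 per Ethanol library. That is 0.0515 to 0.442 CPM in Control and 0.0663 to 0.350 CPM in Ethanol, with medians of 0.143 and 0.181. In edgeR without the filter Cst7 had a log2 fold change of 0.24 (adjusted p = 0.717), and DESeq2 gave 0.24 (0.727).

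Both glycoproteins of the lysosome and membrane were higher in Ethanol. Cd68, a lysosomal membrane glycoprotein of macrophages that is widely used to mark phagocytic microglia, ranged from 7.59 to 13.2 CPM in Control (median 10.1) and from 11.1 to 16.9 CPM in Ethanol (median 15.01). All 12 Ethanol animals were above the Control median and 9 of 12 Control animals were below the lowest Ethanol animal. The log2 fold change of Cd68 was 0.49, or 1.40-fold (SE 0.073, 95% interval 0.34 to 0.64, adjusted p = 7.7e-05). Gpnmb, a transmembrane glycoprotein of phagosomes and lysosomes that pigment cells and macrophages make, ranged from 2.97 to 11.9 CPM in Control (median 5.02) and from 5.04 to 19.7 CPM in Ethanol (median 12.4). Single animals set the ends of the overlap, Control X4761 as the highest Control and Ethanol X4758 as the lowest Ethanol animal. The log2 fold change of Gpnmb was 1.06, or 2.08-fold (SE 0.22, 95% interval 0.60 to 1.52, adjusted p = 0.00263), and it varied most between Control animals, with a coefficient of variation of 47.5%, apart from the sparsely counted Cst7.

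No gene of the 9 had groups that did not overlap. Across all genes tested 22 had every Ethanol animal above every Control animal, 0.124% of them. Genes with every Ethanol animal below every Control animal are not in this count. Tyrobp, Lilrb4a, Lgals3, Cd68 and Gpnmb passed the threshold in every alternative fit that was run, 40 for each and 41 for Lilrb4a. Without the 4 low-Ttr libraries the log2 fold changes were 0.33 for Trem2 (adjusted p = 0.0418), 0.45 for Tyrobp (0.000577), 0.55 for Clec7a (0.0467), 1.48 for Lilrb4a (1.36e-05), 0.77 for Lgals3 (0.00049), 0.54 for Cd68 (0.000151), 1.21 for Gpnmb (0.00288) and -0.11 for Itgax (0.833). Clec7a thus passed there and every call of the full set was kept.

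**Figure D2:**
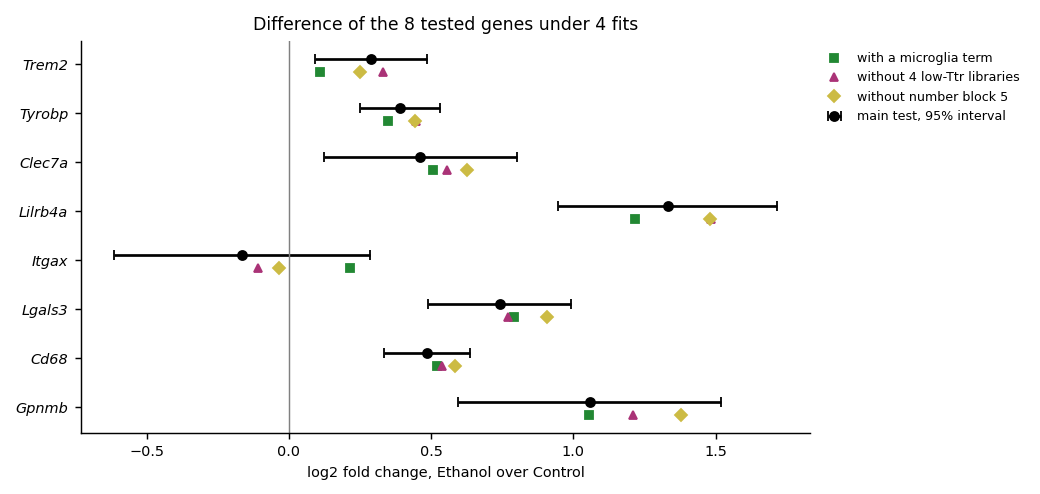
Log2 fold change of Ethanol over Control (horizontal axis) for the 8 tested genes; black points with bars are the test over all 24 animals with its 95% interval, and coloured points are the same test with a microglia term, without the 4 low-Ttr libraries and without block 5. Only Trem2 and Itgax move markedly with the microglia term, Trem2 to 0.11 and Itgax to 0.22.

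The difference between Ethanol and Control was not alike in every block of animal numbers. Lilrb4a, Tyrobp and Trem2 were higher in Ethanol in all 6 blocks, Lilrb4a by ratios of mean CPM from 1.75 to 3.83. Gpnmb, Lgals3, Cd68 and Clec7a were higher in 5 of 6 blocks. In block 5 the ratios were 0.694 for Gpnmb, 0.920 for Lgals3, 0.995 for Cd68 and 0.681 for Clec7a, whereas in the other blocks Gpnmb stood at 2.02 to 3.498. Control X4761 was the highest Control animal for Clec7a, Lilrb4a, Lgals3, Cd68 and Gpnmb, and it is also a low-Ttr library. Ethanol X4758 was the lowest Ethanol animal for Lgals3, Cst7, Cd68 and Gpnmb, though its Trem2 level was among the highest (10.5 CPM).

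A test of whether the treatment difference varied between blocks passed for 0 of the 8 genes at an adjusted p under 0.05, against 0.0677% of all genes tested. At an unadjusted p under 0.05 it passed for 4 of 8 (Lgals3, Gpnmb, Cd68 and Clec7a) and for 6% of all genes. The test was chosen after the values of block 5 had been seen, so these 4 restate that pattern. The lowest adjusted p was that of Lgals3, 0.081, followed by Gpnmb at 0.247. Without block 5 the log2 fold changes were 1.38 for Gpnmb (adjusted p = 0.000125), 0.91 for Lgals3 (2.21e-05), 0.58 for Cd68 (1.38e-05), 0.63 for Clec7a (0.00934), 1.48 for Lilrb4a (2.71e-05), 0.44 for Tyrobp (0.000425), 0.25 for Trem2 (0.1) and -0.033 for Itgax (0.923). Leaving out this block therefore brought Clec7a past the threshold and took Trem2 out.

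**Figure D3:**
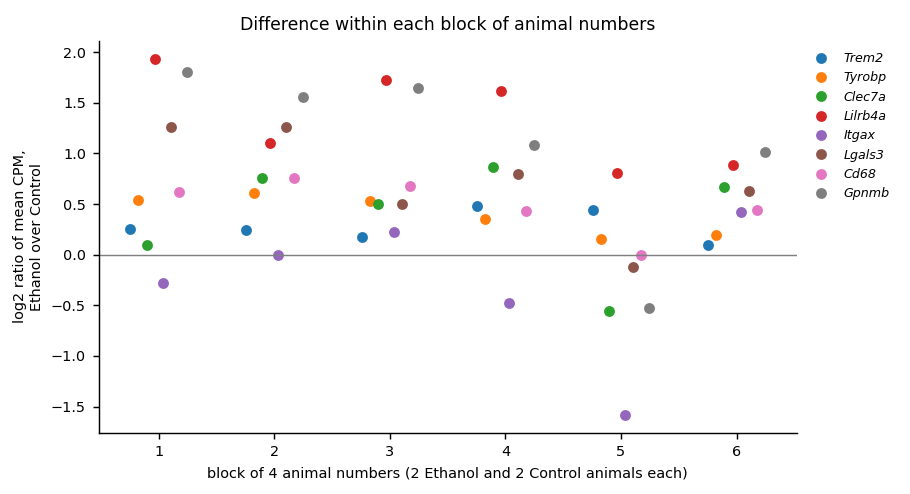
Log2 ratio of mean CPM, Ethanol over Control (vertical axis), within each of 6 blocks of 4 animal numbers (horizontal axis), 1 coloured point per gene. Lilrb4a, Tyrobp and Trem2 lie above 0 in all 6 blocks, and in block 5 Gpnmb, Lgals3, Clec7a, Cd68 and Itgax lie below 0 or at it.

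To set the members against genes that microglia express in most states, the mean level of 8 such genes was added to the fit. These were Csf1r, Aif1, Itgam, Laptm5, Cd53, Ptprc, Irf8 and Spi1. By the main edgeR test 3 of these 8 genes were higher in Ethanol and 0 were lower, and 5 had an unadjusted p under 0.05. The term was therefore not independent of treatment. The 8 genes did not change alike, with log2 fold changes up to 0.52 for Itgam, so their mean is not a measure of microglial RNA alone. Csf1r, the receptor that microglia need to survive, was at 54.8 ± 5.4 CPM in Control and 54.8 ± 13 in Ethanol (SD, n = 12 each), with a log2 fold change of -0.0017 (adjusted p = 0.994). Its ratio of Ethanol to Control differed between blocks, from 0.774 in block 1 to 1.31 in block 5, above 1 in 2 of 6 (test between blocks, unadjusted p = 0.00302, adjusted p = 0.392). With this term Tyrobp (0.35, adjusted p = 0.0019), Lilrb4a (1.22, 0.000234), Lgals3 (0.79, 0.000263), Cd68 (0.52, 0.000111) and Gpnmb (1.05, 0.0062) remained past the threshold. Trem2 fell to a log2 fold change of 0.11 with an adjusted p of 0.327. Itgax turned to 0.22 (adjusted p = 0.397), and Clec7a was at 0.51 (0.0605).

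Of 23 microglia-wide genes, all tested, 9 were higher in Ethanol and 2 were lower, with a median log2 fold change of 0.21. The complement gene C1qb (0.55, adjusted p = 0.00131), the Fc-receptor-like gene Fcrls (0.49, 0.00145) and Fcer1g (0.37, 0.00112), a signalling chain related to Tyrobp, were the 3 with the smallest p among the higher. Siglech (-0.77, adjusted p = 4.3e-05), a receptor that also signals through Tyrobp, and P2ry12 (-0.53, 0.0116), a receptor for nucleotides, were lower, and both are genes of resting microglia. Siglech was below the lowest Control animal in all 12 Ethanol animals. The other 8 resting-state genes divided into 2 higher and 6 that did not pass. Nearest to the threshold of these 6 were Gpr34 (-0.31, adjusted p = 0.0514) and then Cx3cr1 (0.15, 0.169). DESeq2 and limma-voom each called 3 of the 23 genes lower.

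The 9 genes are part of a longer published set, and 36 further disease-associated genes were examined. Of the 35 tested, 16 were higher in Ethanol and 0 were lower (2 at an unadjusted p under 0.05, and 0 by DESeq2 or limma-voom), with a median log2 fold change of 0.15. Among growth factors and chemokines 4 of 5 tested were higher, including Csf1 (0.50, adjusted p = 2.4e-05), a ligand of Csf1r, and Ccl3 (1.73, 0.000163), a chemokine. Among lipid-handling genes 4 of 6 were higher, with Apoe, a lipid carrier and ligand of Trem2, at 675 ± 66 CPM in Control and 881 ± 89 in Ethanol (SD, n = 12 each; log2 fold change 0.38, adjusted p = 5e-05). Of 11 genes for lysosomal proteins and proteases 5 were higher, and of 5 further surface genes 1 was.

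Around Trem2 and Tyrobp, 27 of 30 pathway genes were tested, of which 9 were higher and 1 was lower (median log2 fold change 0.15). Besides signalling genes this list held proteases that shed Trem2, membrane proteins and other receptors, and the lower gene was the receptor Siglech. The phosphatase Ptpn6 (SHP-1), which dampens such signals, was higher by 0.42 (adjusted p = 8.1e-05), and Ms4a6d, a membrane protein of macrophages, by 0.91 (0.00419). Of 17 kinases, adaptors and effectors 5 were higher, among them Plcg2 (0.32, adjusted p = 0.0462), the phospholipase that acts after Trem2, and Vav1 (0.47, 0.0084). Syk, the kinase that Tyrobp recruits, had a log2 fold change of -0.076 (adjusted p = 0.453), with a 95% interval of -0.21 to 0.052. Adam10 and Adam17, the proteases that shed Trem2 from the surface, had -0.064 (0.41) and -0.0041 (0.941), and neither passed at an unadjusted p under 0.05 or by DESeq2 or limma-voom.

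Relatives and partners of the other members followed no single pattern, with 6 higher and 1 lower of 26 tested (median log2 fold change 0.14). Itgb2, the beta subunit with which Itgax pairs, was higher by 0.50 (adjusted p = 0.00771), unlike Itgax, and so was the alpha subunit Itgal (0.58, 0.0165). The difference between Itgax and these subunits was not tested. Lgmn, a lysosomal protease, was higher by 0.17 (0.00879). Of 5 genes for other galectins or the galectin-3-binding protein 0 passed (1 at an unadjusted p under 0.05, and 0 by DESeq2 or limma-voom). The 3 LAMP relatives of Cd68 tested and the 4 MiT/TFE genes likewise gave 0 calls, 0 at an unadjusted p under 0.05 and 0 by either other tool. Pmel, the pigment-cell homologue of Gpnmb, was lower in Ethanol, with a log2 fold change of -0.43 (0.0364).

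**Figure D4:**
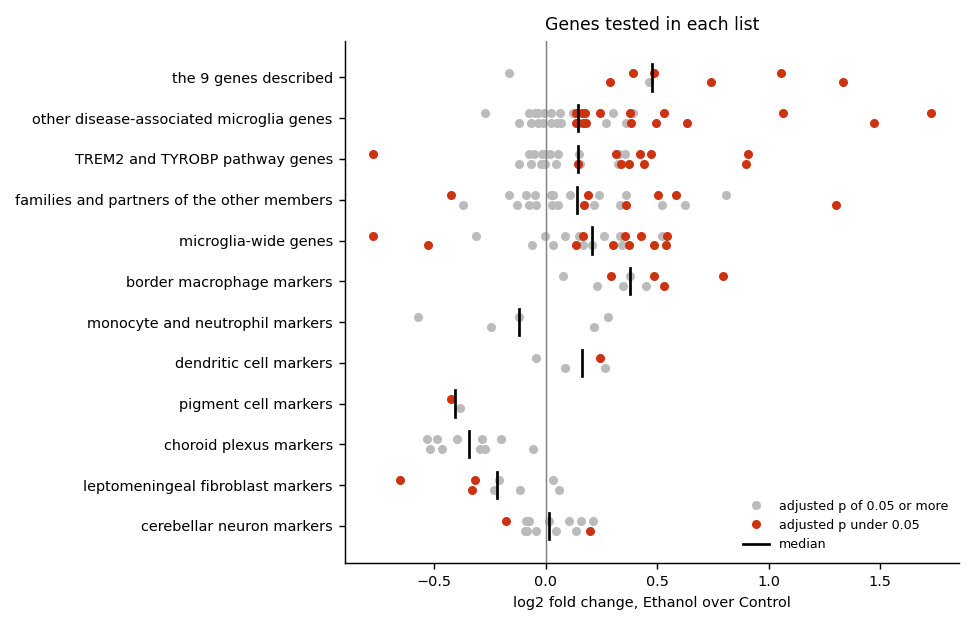
Log2 fold change of Ethanol over Control (horizontal axis) for each tested gene of the 12 lists (vertical axis), with genes at an adjusted p under 0.05 in red, the others in grey and a black bar at each list's median. The 8 tested of the 9 genes have the highest median of the lists, at 0.47. Border macrophage markers have the next highest, at 0.38. Genes and lists were chosen with earlier results of these data known.

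Markers of other cells that could hold these transcripts were measured beside them. Of 9 border macrophage markers, which mark macrophages of the meninges and vessels, 4 were higher and 0 were lower (0 also at an unadjusted p under 0.05 and by DESeq2 or limma-voom): Cbr2 (0.79, adjusted p = 5.7e-05), Cd163 (0.53, 0.0149), F13a1 (0.49, 0.0341) and Mrc1. The 9 markers had a median log2 fold change of 0.38, and all 9 were above 0. Their summed level ran from 83.4 to 113 CPM in Control and from 89.2 to 149 CPM in Ethanol. Their part in the rise of the members was not tested. Of the 12 monocyte and neutrophil markers 5 could be tested and 0 passed (0 also at an unadjusted p under 0.05 and by DESeq2 or limma-voom), and their summed level of 1.95 to 14.98 CPM in Control and 1.98 to 14.3 in Ethanol overlapped throughout. The most abundant of them, S100a9 and S100a8, had log2 fold changes of 0.28 and 0.22 with 95% intervals of -0.87 to 1.43 and -0.90 to 1.34.

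Of 4 dendritic cell markers tested, 1 was higher (Zbtb46, 0.24, adjusted p = 0.0298), and of 2 pigment cell markers tested Pmel was lower. The summed level of the pigment list, whose cells also make Gpnmb, was 1.51 to 2.52 CPM in Control and 1.05 to 1.73 in Ethanol, and the part of these cells in the difference of Gpnmb was not tested. Of 10 choroid plexus markers 0 passed (0 also at an unadjusted p under 0.05 and by DESeq2 or limma-voom). Ttr and Otx2, the most abundant of them, had log2 fold changes of -0.27 (95% interval -2.10 to 1.55) and -0.29 (-0.61 to 0.035). Of 8 leptomeningeal markers 3 were lower (Lum, -0.65, adjusted p = 0.00274; Col3a1, -0.33, 0.00356; Col1a1, -0.32, 0.0284). Of 13 markers of cerebellar neurons Atoh1 was higher (0.20, 0.0474) and Barhl1 was lower (-0.18, 0.0442). No marker of any list was at 0 in all libraries.

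How the members varied together from animal to animal was examined on log2 CPM centred on each treatment's mean, so that the treatment difference did not enter. Over the 28 pairs of the 8 tested genes the median Pearson's r was 0.37, and 24 pairs had r above 0. With permutation p-values adjusted over the 28 pairs, 9 passed by Pearson's r, 12 by Spearman's rho and 9 by both. The permutations took no account of blocks or ages. With blocks also centred the median r was 0.39 and 21 pairs had r above 0, without a p-value. Lgals3, Cd68 and Gpnmb varied together: r was 0.787 for Lgals3 and Cd68 (rho 0.828), 0.776 for Lgals3 and Gpnmb (rho 0.715), and 0.792 for Cd68 and Gpnmb (rho 0.703). The permutation p-values of r were 3e-05, 2e-05 and 1e-05, the last being the smallest that 100000 permutations can give, and all 3 adjusted values were 0.00028; those of rho were 2e-05, 9e-05 and 0.00027, or 0.00056, 0.00126 and 0.00252 adjusted. Within treatments r ran from 0.718 to 0.861 in Control and from 0.698 to 0.876 in Ethanol, and with the blocks also centred from 0.795 to 0.843. Without the 2 animals farthest from the median of the gene named first in each pair, r ran from 0.656 to 0.691.

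Tyrobp also varied with this trio. For Tyrobp and Gpnmb r was 0.719 and rho 0.638 (permutation p = 0.00018 and 0.00148, adjusted 0.00106 and 0.00868), though r was 0.938 within Control and 0.302 within Ethanol. Without the 2 animals farthest from the median of Tyrobp, this r was 0.614. For Tyrobp and Trem2 r was 0.32 and rho 0.302 (permutation p = 0.117 and 0.155, adjusted 0.193 and 0.241). This r was -0.0046 once blocks were also centred, 0.516 within Control and 0.112 within Ethanol. It was 0.33 without the 2 animals farthest from the median of Trem2. The difference between these 2 correlations was not tested.

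Trem2 and Itgax were the only pair with a negative correlation past the threshold. Their r was -0.597 and rho -0.559 (permutation p = 0.00319 and 0.00706, adjusted 0.0128 and 0.0247). The value of r was -0.52 within Control, -0.642 within Ethanol and -0.397 with blocks also centred. It was -0.624 without the 2 animals farthest from the median of Trem2. Both Ethanol animals of block 5 stood at the ends of this relation, with the highest Trem2 (10.5 and 10.9 CPM) and the lowest Itgax.

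**Figure D5:**
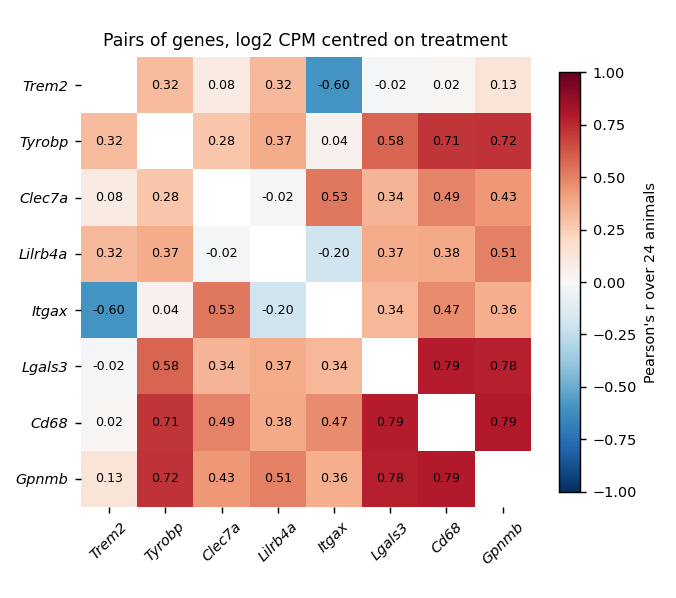
Pearson's r over 24 animals for each of the 28 pairs of tested genes (both axes list the genes), on log2 CPM centred on treatment, coloured from blue (-1) to red (1). Lgals3, Cd68, Gpnmb and Tyrobp form a block of high values and Trem2 with Itgax is the lowest pair.

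Genes whose levels were most like those of each member over the 24 animals are given as a description, by Pearson's r on the same centred values. Gpnmb was most like Serpina3n (0.834), Spp1 (0.815) and Plek (0.795), and Serpina3n and Spp1 had log2 fold changes of 1.66 and 1.47 (adjusted p = 5.1e-05 and 0.00166). Lgals3 was closest to Cd68, Gpnmb and Slc16a3 (0.763), and Cd68 to Gpnmb, Lgals3 and Rab26os (0.761). Among the genes closest to Tyrobp were Havcr2 (0.805) and Ctsl (0.732), both higher in Ethanol (adjusted p = 0.0376 and 0.004). The nearest to Lilrb4a was C3ar1 (0.731), the receptor of a complement fragment, with a log2 fold change of 0.85 (adjusted p = 4.6e-05), followed by Adra1a (0.714) and Fam13c (0.682). The nearest of the remaining 3 were Abtb1 (0.862), Cry2 (0.848) and Laptm5 (0.847) for Trem2, Gm18724 (0.774), Acaca (0.762) and Idi1 (0.745) for Clec7a, and Gm8399 (0.782), Slc6a2 (0.750) and Nxnl2 (0.716) for Itgax; of these 9 only Laptm5 differed between treatments (0.17, adjusted p = 0.0296).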

How the data were processed

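Poly(A) RNA of the cerebellum of 24 mice was sequenced. The authors deposited estimated counts per gene, made with nf-core/rnaseq 3.4 from paired reads of 75 bases; STAR, Salmon and limma, with build GRCm39, stand in the submitters' processing notes. The labels and the study's methods name different homogenizers and RNA kits. Tool versions, annotation release and strandedness were not given in the sources used here. Of the deposited values 10.92% lie further than 0.01 from a whole number, so the estimated counts were rounded. All columns matched a label (0 unmapped), and treatment came from the labels.

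The test was the quasi-likelihood test of edgeR 4.0.16 under R 4.3.3 after filterByExpr and TMM, whose factors ran from 0.9822 to 1.013 (robust glmQLFit and glmQLFTest, 22 residual degrees of freedom, Benjamini-Hochberg adjustment over 17736 genes, threshold 0.05). The SE was taken from the F statistic, and 95% intervals from the t distribution. Each library is 1 animal by label. No label marks litters, so p-values of the fit without a block term and of the permutations take animals as independent. Correlations used log2 CPM (prior count 2) and 100000 two-sided permutations of animals within treatment, in Python 3.11.15 (numpy 2.4.6, scipy 1.17.1, pandas 2.3.3, matplotlib 3.10.9).

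Members and lists were chosen with earlier results of these data known. The lists were written from general knowledge. Genes named from a list were the 3 with the smallest p in each direction, or the 2 of highest level where none passed, and for each member the 3 genes most like it, of which 1 is not reported here. Csf1r, Ttr and Lilr4b were always given, and Itgal, Mrc1, Syk, Adam10, Adam17, Plcg2 and Vav1 were added after their values were seen. Cst7 failed the filter of the main edgeR test and was tested only without the filter and with DESeq2, so 28 pairs were examined where 36 had been planned. The near copy of Lilrb4a, planned as Lilrb4b, was matched to the table's Lilr4b. Shared stretches were counted on GENCODE M21 transcripts (GRCm38). No coordinates were converted.

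Alternatives were limma 3.58.1 (trend and voom), DESeq2 1.42.0, RLE and upper-quartile scaling, no filter, a stricter filter (1 CPM in 12 libraries), blocks as a term, a microglia term, and fits without each animal, each block or the 4 low-Ttr libraries (log2 CPM of Ttr under 4). The sum of Lilrb4a and Lilr4b and the test between blocks were chosen after seeing the data. Counts were also simulated for 12 against 12 animals (17599 genes), without block, litter or age effects and with fewer changed genes than were called here. On these the test called 78% of genes changed 1.5-fold upwards and 98% of those changed 2-fold, and 0.046% of unchanged genes. Errors under dependence within blocks were not simulated. The chi-square per gene of the most alike pair of libraries was 4.951, so no library was counted as a repeat.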

Additional observations from a re-analysis of the deposited data

How the results depend on the processing

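The number of the 8 tested genes past the threshold, 6, stayed within 1.5 times under every alternative and ran from 5 to 7 when 1 animal was left out. The direction of each was kept under the 40 alternatives (41 for Lilrb4a), except that Itgax, never past the threshold, turned to a log2 fold change of 0.22 with the microglia term. Trem2 passed in 19 of 40 alternatives, with adjusted p from 0.00119 to 0.327. It did not pass by limma-voom (0.0502), without the filter (0.0536), or without block 1 (0.0793), 2 (0.0524), 4 (0.162) or 5 (0.1); the cause was not tested.

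Calls in the lists moved more. With the microglia term the pathway genes past the threshold went from 10 to 6, as without block 1 or 4, and relatives and partners from 7 to 3 (4 without block 1 or 3, 11 with blocks as a term). With blocks as a term the pathway genes went from 10 to 13, and the other disease-associated genes from 16 to 18. Microglia-wide genes went from 11 to 17 with blocks as a term, and monocyte and neutrophil markers from 0 to 1 with the microglia term. Border macrophage markers went from 4 to 2 with limma-trend, limma-voom, no filter or without block 6, to 1 without the low-Ttr libraries or block 1, 3 or 5, and to 2 to 4 without 1 animal. The dendritic marker call (1) was 0 without the filter, with the microglia term, without the low-Ttr libraries and without any of blocks 1 to 5, and 0 to 1 without 1 animal. The pigment call (1) was 0 without the filter, with the stricter filter, with the microglia term, without the low-Ttr libraries and without block 1, 3, 4 or 5, and 0 to 1 without 1 animal. The cerebellar neuron calls (2) were 1 with limma-trend, limma-voom, without the low-Ttr libraries or block 1, 0 without the filter or block 2, 3 or 4, 4 with blocks as a term, and 0 to 3 without 1 animal. For none of these was the cause tested.

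Over all genes, 1608 were higher and 1028 lower. Upper-quartile scaling gave 1373 and 1396, a shift of the median log2 fold change to -0.019. Lower calls were 662 without the filter, 612 without the low-Ttr libraries, 616 without block 1, 612 without block 3 and 499 without block 4. The labels give no replicate number that Ethanol and Control share; with the blocks of animal numbers as a term 1982 genes were higher and 1363 lower, and 7 of the 8 tested genes passed, Clec7a (0.0399) being the addition. Cst7 had 2 to 15 counts per library.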
